A study of Mus musculus with 2 samples.

Results

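The let-7 family with miR-98 is a group of closely related microRNAs (miRs), short RNAs that pair with messenger RNAs and lower their translation and stability. Its members in the sperm libraries were found by name among the mature miRs listed in the deposited counts, as every entry of let-7a, let-7b, let-7c, let-7d, let-7e, let-7f, let-7g, let-7i or miR-98, with both arms of each hairpin. This gave 20 of 1886 entries, of which 9 are 5p arms and 11 are 3p arms, and 1 of the 3p entries joins the names of let-7c-2-3p and let-7a-1-3p. The small RNA came from sperm of naive, wild-type C57BL/6J mice, aged 3 months by the sample labels, in 2 libraries described as independent biological replicates of 1 condition. Sperm was let out of the epididymis and treated with a detergent buffer to remove other cells. The labels and methods name no treatment for these mice. The names of the deposited files carry a treatment tag that the labels do not explain. How many mice gave each library is not given in the sources used here. With 1 condition, no contrast was tested, and the values below describe the levels and their spread between the replicates.

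let-7 was first known from the timing of development in the nematode, and in mammals its members are abundant in differentiated tissues and scarce in early embryonic cells. The hairpin of each member is cut by Drosha and then by Dicer into a duplex of 2 arms, from which the 5p arm is usually kept by Argonaute as the guide and the 3p arm is mostly lost. Bases 2 to 8 of the guide, counted from its 5′ end and called the seed, do most of the pairing with target messenger RNAs. LIN28, an RNA-binding protein of stem and germ cells, binds the loop of many let-7 hairpins and blocks their maturation. In sperm, miRs come both from the germ cells and from vesicles taken up during transit through the epididymis.

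The 9 guide arms are shown because reads were assigned to members by differences of single bases. The seed is in capitals, and the sequences are from RefSeq (GRCm38.p6).
let-7f-5p: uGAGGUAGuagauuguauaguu
let-7c-5p: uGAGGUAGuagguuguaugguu
let-7a-5p: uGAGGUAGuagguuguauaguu
let-7g-5p: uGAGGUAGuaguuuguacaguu
let-7i-5p: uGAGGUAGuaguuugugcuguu
let-7b-5p: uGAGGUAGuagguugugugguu
let-7e-5p: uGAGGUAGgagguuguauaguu
let-7d-5p: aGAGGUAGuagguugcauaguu
miR-98-5p: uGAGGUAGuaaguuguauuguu

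All 9 guides are 22 bases long and share the seed GAGGUAG, and 14 of the 22 positions are the same in every member. Against let-7a-5p, with positions counted from the 5′ end, let-7c-5p differs by A19G, let-7f-5p by G12A and let-7e-5p by U9G. let-7b-5p differs by A17G and A19G, let-7d-5p by U1A and U16C, miR-98-5p by G11A and A19U, and let-7g-5p by G12U and U18C. let-7i-5p lies farthest from let-7a-5p, with G12U, A17G, U18C and A19U. Of the 36 pairs of members, 4 differ at a single base. In 4 pairs the first 15 bases are the same, and 15 bases is the shortest read the authors kept. These pairs are let-7a-5p with let-7b-5p, let-7a-5p with let-7c-5p, let-7b-5p with let-7c-5p, and let-7g-5p with let-7i-5p. A read that ends before the first base at which such a pair differs cannot be placed between its members. That base is at position 19 for let-7a-5p with let-7c-5p and at position 17 for the others. How many reads were so short, and how the authors handled reads that fit several members, is not given in the sources used here. The split of reads between let-7a, let-7b and let-7c, and between let-7g and let-7i, is therefore uncertain, while their sums are less so.

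The 3p arms are less alike, with 8 different seeds among the 11 entries. The 3 with the most reads are shown with the bases 2 to 8 in capitals, since their reads decide the 3p results below.
let-7d-3p: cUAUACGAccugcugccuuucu
let-7c-2-3p and let-7a-1-3p: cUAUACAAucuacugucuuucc
let-7b-3p: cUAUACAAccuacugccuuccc

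In replicate 1 the family held 103262 of 4049599 miR reads, or 2.55% with a Wilson 95% interval of 2.53% to 2.57%. In replicate 2 it held 111590 of 5648067, or 1.98% with an interval of 1.96% to 1.99%. The mean share was 2.26% ± 0.406 (SD, n = 2 libraries). Intervals cover counting error of reads only. PCR copies of 1 molecule cannot be recognised in these reads, so the intervals may be too narrow for the counting error of molecules. The share was lower in replicate 2, and the counting intervals did not overlap. Nearly all of it was on the guides, with 102893 reads on the 5p arms in replicate 1 and 111182 in replicate 2, against 369 and 408 reads on the 3p arms. The miR-30 family, which like let-7 is made from many hairpins, took 1.30% and 1.15% of the miR reads. The miR-99 and miR-100 family together with miR-125, some of which lie in clusters with let-7 hairpins, took 1.53% and 1.45%. Both ranges lay below the range of the let-7 family, and with 2 libraries the difference was not tested. Among the 1608 entries with a sequence in the reference table, which held 94.7% and 92.5% of the miR reads, the seed GAGGUAG ranked 3rd by mean share of miR reads. Only the seeds of miR-10 (79.2% ± 1.67, SD, n = 2) and of miR-191 (2.55% ± 1.23, SD, n = 2) took more of the reads in this set by mean. The places of miR-191 and let-7 turned in replicate 2, where the seed of miR-191 held 1.68% and that of let-7 1.97% of the miR reads. The set leaves out miR-143-3p, which had 165421 and 349579 reads, more than the whole let-7 family.

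CPM is used here for the reads of a miR per 1000000 miR reads of the library. Detection, taken as at least 1 read in each library, was found for 17 of the 20 entries, where 20.0% of all 1886 entries passed. All 9 guides passed, with at least 927 reads in each library, and 22.8% of all 5p entries did. Of the 11 3p entries 8 passed, against 23.1% of all 3p entries. let-7f-1-3p and let-7f-2-3p each had reads in 1 library, with 0 and 4 reads for the former and 2 and 0 reads for the latter. let-7a-2-3p had no read in either library, which allows up to 0.741 CPM in replicate 1 and 0.531 CPM in replicate 2 for a count of 3 reads.

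**Figure D1:**
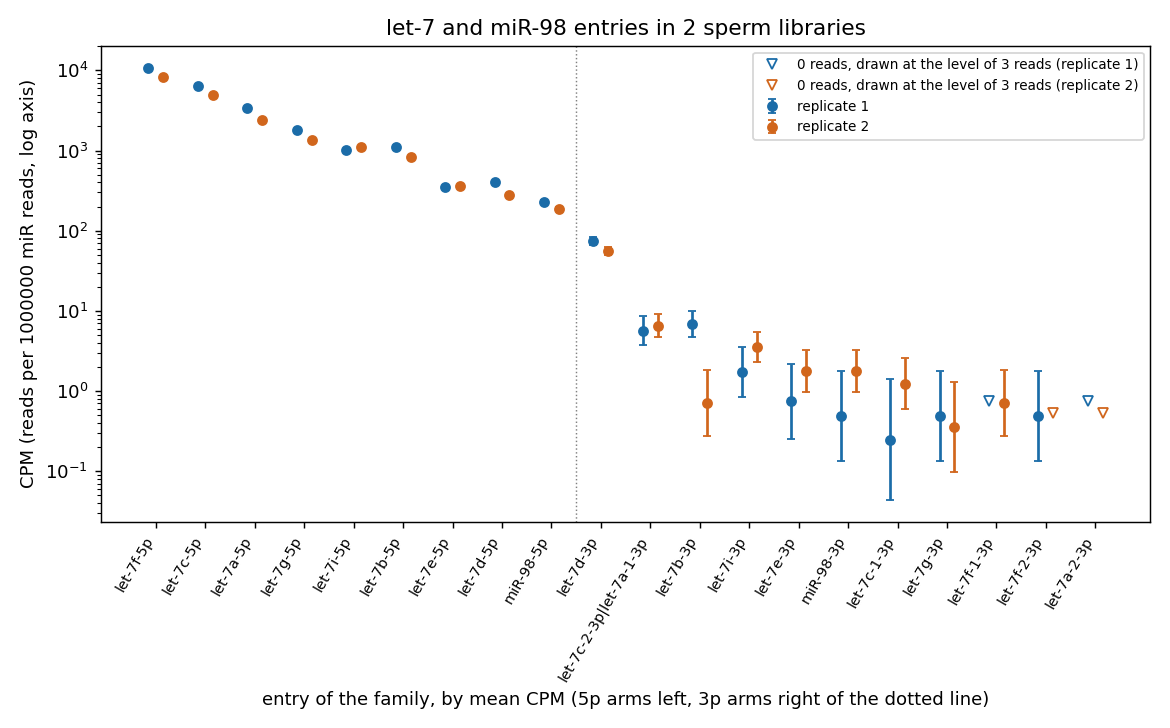
CPM on a log axis for the 20 entries of the family, ordered by mean, with 1 point for each library and Wilson 95% intervals as bars. Open triangles mark 0 reads, drawn at the level of 3 reads. The 9 guides lie between 187 and 10743 CPM, let-7d-3p lies between 55.6 and 74.3 CPM, and the other 3p arms lie below 7 CPM.

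let-7f-5p was the most abundant member, with 43506 reads in replicate 1 and 46621 in replicate 2, or 10743 and 8254 CPM. Its mean of 9499 ± 1760 CPM (SD, n = 2) put it in the 8th place of the 378 entries with reads in each library. let-7c-5p followed with 25953 and 27799 reads, or 6409 and 4922 CPM. let-7a-5p had 13600 and 13582 reads, or 3358 and 2405 CPM. These 3 guides, which differ from each other at positions 12 and 19 only, together held 80.4% of the family reads in replicate 1 and 78.9% in replicate 2.

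let-7g-5p had 7210 and 7599 reads, or 1780 and 1345 CPM. let-7i-5p had 4157 and 6297 reads, or 1027 and 1115 CPM, and was, with let-7e-5p, 1 of 2 guides with a higher CPM in replicate 2. let-7b-5p had 4514 and 4646 reads, or 1115 and 823 CPM. The order of let-7i-5p and let-7b-5p was reversed between the libraries.

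let-7e-5p had 1405 and 2028 reads, or 347 and 359 CPM. let-7d-5p had 1621 and 1556 reads, or 400.3 and 275 CPM. miR-98-5p, which carries the let-7 seed under another name, was the lowest guide, with 927 and 1054 reads, or 229 and 187 CPM. let-7f-5p stood 46.9-fold above miR-98-5p in replicate 1 and 44.2-fold in replicate 2.

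In the order of the 9 guides by mean CPM, 6 of the 8 neighbouring pairs had ranges over the 2 libraries that did not overlap. The ranges overlapped for let-7i-5p with let-7b-5p and for let-7e-5p with let-7d-5p, so these neighbours did not differ beyond their spread. The other 5 members held the same place in both libraries. The step from let-7f-5p to let-7c-5p was 1.68-fold in each library. let-7b-5p lay 2.74-fold above let-7e-5p by mean CPM, the widest step between neighbours.

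By the distance between the pairs of log2 CPM values, the entry outside the family nearest to let-7f-5p among 361 detected entries was miR-30a-5p (9834 and 9300 CPM, distance 0.21), followed by miR-141-3p (8365 and 7077 CPM, 0.42) and miR-148a-3p (15503 and 10465 CPM, 0.63). The nearest to miR-98-5p were miR-3535 (213 and 183 CPM, 0.11), the joined entry of miR-199b-3p and miR-199a-3p (190 and 226 CPM, 0.39) and miR-200a-3p (269 and 235 CPM, 0.41). Likeness over 2 libraries of 1 condition is mainly likeness in level.

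Shares of the family reads do not depend on how the libraries are scaled, and they were close between the replicates. let-7f-5p took 42.1% of the family reads in replicate 1 (Wilson 95% interval 41.8% to 42.4%) and 41.8% in replicate 2 (41.5% to 42.1%). let-7c-5p took 25.1% and 24.9%, and miR-98-5p took 0.898% and 0.945%. For these members, and for let-7g-5p and let-7b-5p, the counting intervals of the libraries overlapped.

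For the other 4 guides the counting intervals did not overlap. The spread between further libraries is not known. The split between let-7g and let-7i and that between let-7a, let-7b and let-7c are uncertain as given above. Those of let-7e and let-7f from let-7a may be so too. let-7i-5p took 4.03% of the family reads in replicate 1 (3.91% to 4.15%) and 5.64% in replicate 2 (5.51% to 5.78%), a difference of 1.62 percentage points and the largest in the family. let-7e-5p took 1.36% (1.29% to 1.43%) and 1.82% (1.74% to 1.90%). let-7a-5p took 13.2% (13.0% to 13.4%) and 12.2% (12.0% to 12.4%). let-7d-5p took 1.57% (1.50% to 1.65%) and 1.39% (1.33% to 1.46%).

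**Figure D2:**
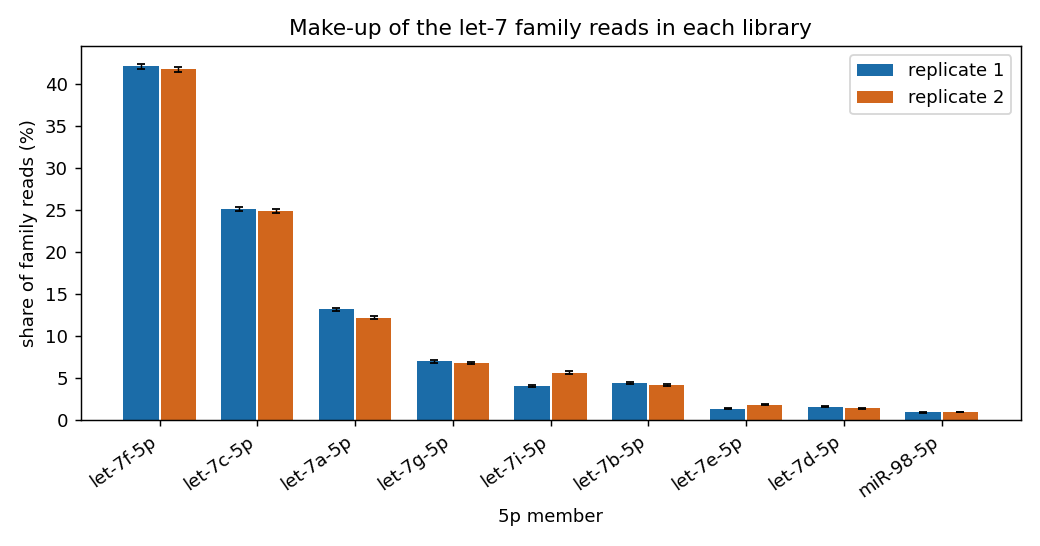
Share of the family reads in percent for the 9 guides, with 1 bar for each library and Wilson 95% intervals. let-7f-5p holds 42.1% and 41.8%, and the pair of bars that differs most in percentage points is let-7i-5p, at 4.03% and 5.64%.

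Against all miR reads, 7 of the 9 guides were lower in replicate 2, with log2 ratios of CPM + 1 between -0.54 for let-7d-5p and 0.12 for let-7i-5p and a median of -0.38. The median over the 323 entries that had 10 or more reads when both libraries were summed was -0.25, so most miRs were lower in replicate 2 on this scale. TMM, a scaling by edgeR that trims extreme ratios, moved the median of these entries by 0.30, and the size factors of DESeq2 moved it by a like amount. With TMM the guides lay between -0.19 and 0.47 with a median of -0.03, and 3 of the 9 were above 0, miR-98-5p among them. By miR reads, 2 of the 9 guides, let-7i-5p and let-7e-5p, lay above the median of the 323 entries. Another scaling shifts all entries almost equally and leaves these places as they are. The log2 ratio of the family total was -0.37 by miR reads and -0.02 with TMM.

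A difference of over 2-fold between the libraries was seen for 1 of the 15 entries of the family that passed the filter, against 19.8% of the 323 entries. The entry was let-7b-3p, with 28 reads in replicate 1 and 4 in replicate 2, which is 6.91 CPM (4.78 to 9.99 by the Wilson 95% interval) and 0.708 CPM (0.275 to 1.82). Most entries of the family that passed are abundant guides, and when 100 reads over both libraries were asked for, the counts were 0 of 10 entries against 19.4% of 165.

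**Figure D3:**
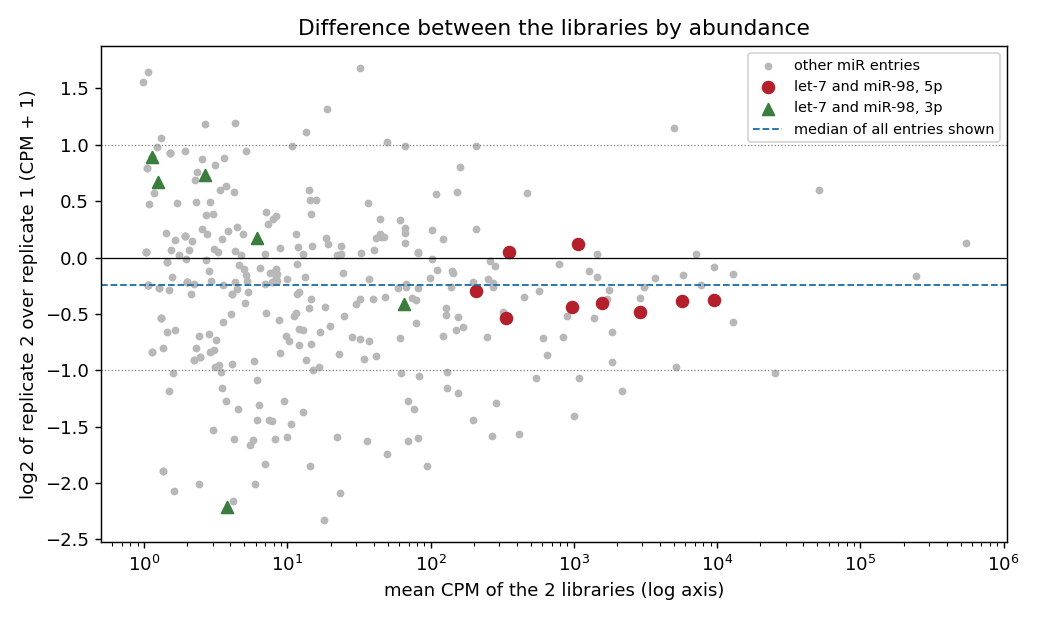
The log2 ratio of replicate 2 to replicate 1 (CPM + 1) against mean CPM on a log axis for the 323 entries that passed the filter. The 9 guides (circles) lie between -0.54 and 0.12 near the dashed median of -0.25, and let-7b-3p is the triangle below the lower dotted line, which like the upper one marks a 2-fold difference.

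Marker miRs of the cells that such a preparation can hold moved between the same libraries. The germ-cell markers (the miR-34, miR-449, miR-465 and miR-743 groups and others) took 0.557% and 0.226% of the miR reads in replicates 1 and 2. Over all 1886 entries, 20.0% were detected in both libraries, the share to set beside the counts of each list here. Of the 19 germ-cell entries, 11 were detected in both libraries and 6 were at 0 in both, among them miR-741-3p, miR-871-5p, miR-880-5p and miR-881-5p. For miR-743b, miR-871, miR-880 and miR-881 only the 5p arm was among the counted entries, and for miR-741 only the 3p arm. These values of 0 therefore say nothing of the other arms. The smooth muscle and stroma markers took 4.13% and 6.26% with 7 of 8 entries detected, the blood markers took 0.329% and 0.718% with 8 of 9, and the epithelial markers took 1.08% and 0.886% with 12 of 14. Most reads of each list lay on 1 entry. miR-143-3p held 98.8% and 98.9% of the stroma list, the joined entry of miR-486b-5p and miR-486a-5p held 94.4% and 95.9% of the blood list, miR-141-3p held 77.4% and 79.9% of the epithelial list, and miR-34c-5p held 53.5% and 58.2% of the germ-cell list. Some entries went the other way from the sum of their list. Among these were miR-205-5p of the epithelial list, with 138 and 274 CPM, and miR-223-3p of the blood list, with 15.8 and 9.74 CPM. miR-142a-5p of the blood list rose less than the sum, with 93.1 and 110 CPM. The defining miR-34c-5p, miR-143-3p, miR-451a and miR-141-3p had reads in both libraries. The part of these cells in the levels of the let-7 family was not tested. In bulk samples, fewer cells of a type and less RNA per cell cannot be told apart.

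On the 3p arms, let-7d stood apart from the rest of the family. let-7d-3p had 301 reads in replicate 1 and 314 in replicate 2, or 74.3 and 55.6 CPM, while no other 3p entry had more than 37 reads in a library. It held 81.6% of all 3p reads of the family in replicate 1 (Wilson 95% interval 77.3% to 85.2%) and 77.0% in replicate 2 (72.6% to 80.8%). Of the let-7d reads, 15.7% were on the 3p arm in replicate 1 (14.1% to 17.4%) and 16.8% in replicate 2 (15.2% to 18.6%), so the split between the arms was alike in both libraries.

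Over the whole family the 3p arms held 0.357% of the reads in replicate 1 and 0.366% in replicate 2. Without let-7d these shares were 0.0671% and 0.0857%. let-7f had the lowest share, with 2 and 4 reads on its 3p arms, or 0.00460% and 0.00858% of its reads. let-7g-3p had 2 reads in each library, or 0.0277% and 0.0263% of the let-7g reads. let-7b had 0.616% of its reads on the 3p arm in replicate 1 (0.427% to 0.890%) and 0.0860% in replicate 2 (0.0335% to 0.221%), and these intervals did not overlap.

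Shares of the other members rested on few 3p reads. let-7i had 0.168% and 0.317% of its reads on the 3p arm, let-7e had 0.213% and 0.491%, and miR-98 had 0.215% and 0.940%, from at most 20 reads on the 3p arm in a library, and their intervals overlapped between the libraries. let-7a and let-7c had to be summed because of the joined entry, and their 3p share was 0.0606% and 0.106%. Among 69 miR names with both arms listed and at least 1000 reads in all, joined entries left out, the median share of the arm with fewer reads was 0.122%. It was 16.2% for let-7d over both libraries, and 5 of the 69 names had a higher share.

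**Figure D4:**
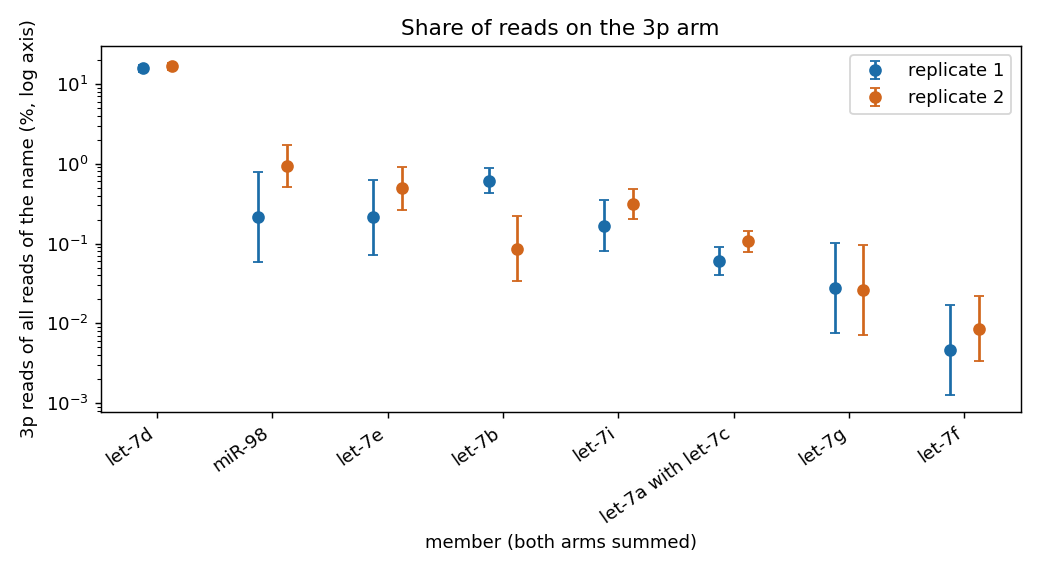
Reads on the 3p arm as a percent of all reads of a member, on a log axis, with 1 point for each library and Wilson 95% intervals. let-7d lies at 15.7% and 16.8%, and each of the other members lies below 1% in both libraries.

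The hairpin of let-7d is shown with both arms in capitals, since it is the one member with an appreciable number of reads on each arm.
Mirlet7d, chr13:48536012-48536114, minus strand: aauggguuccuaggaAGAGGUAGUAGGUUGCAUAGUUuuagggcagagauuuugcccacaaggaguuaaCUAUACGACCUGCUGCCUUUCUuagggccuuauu

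The family is made from 12 hairpins on 7 chromosomes in GRCm38, the build named in the submitters' processing notes, and the positions below are from RefSeq with overlaps from GENCODE M21. On the minus strand of chromosome 13, Mirlet7a-1 (48538179 to 48538272), Mirlet7f-1 (48537829 to 48537917) and Mirlet7d (48536012 to 48536114) lie in a row and overlap exons of the lincRNA gene 6720427I07Rik, with 261 bases between the first pair and 1714 between the second. On the X chromosome, Mirlet7f-2 (151912346 to 151912428) and Mir98 (151913214 to 151913321) lie 785 bases apart in an intron of Huwe1, which encodes a ubiquitin ligase. On chromosome 15, Mirlet7c-2 (85706603 to 85706697) and Mirlet7b (85707319 to 85707403) lie 621 bases apart and overlap exons of the non-coding gene Lncppara.

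Guides of members that share a cluster had unequal levels when each was summed over all its hairpins. let-7c-5p lay 5.75-fold above let-7b-5p in replicate 1 and 5.98-fold in replicate 2, and let-7f-5p lay 26.8-fold and 30.0-fold above let-7d-5p. The guides of let-7a, let-7c and let-7f each come from more than 1 hairpin with the same guide sequence, so their reads cannot be tied to a locus. Whether the hairpins within these clusters gave unequal levels is therefore not known. The 3p arms of let-7c-1, let-7f-1, let-7f-2 and let-7a-2 would separate the loci, but they had at most 7 reads in a library.

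The remaining hairpins lie alone or with miRs of other families. Mirlet7g (chromosome 9, 106178840 to 106178927) lies in an intron of Wdr82, which encodes a subunit of a histone methyltransferase complex. Mirlet7i (chromosome 10, 122985640 to 122985724) overlaps the pseudogene transcript D630033A02Rik, exonic in 1 of its transcripts and intronic in the other. Mirlet7e (chromosome 17, 17830352 to 17830444) lies in an intron of Spaca6, a gene of the sperm acrosome that is needed for fusion with the egg, and 367 bases from Mir125a. Mirlet7c-1 (chromosome 16, 77599657 to 77599750) lies in an intron of Mir99ahg, 656 bases from Mir99a. Mirlet7a-2 (chromosome 9, 41536716 to 41536811) lies in an intron of 3110039I08Rik, 5211 bases from Mir100 and 45114 from Mir125b-1.

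Of the miR-99, miR-100 and miR-125 entries, some of whose hairpins lie in these clusters, 10 of 11 were detected in both libraries. Over all 1886 entries, 20.0% were. let-7e-5p stood in nearly the same ratio to miR-99b-5p in each library. miR-99b-5p had 28435 and 40544 reads, or 7022 and 7178 CPM, which is 20.2-fold above let-7e-5p in replicate 1 and 20.0-fold in replicate 2. miR-125a-5p had 15936 and 19602 reads, or 3935 and 3471 CPM, 11.3-fold and 9.67-fold above let-7e-5p. let-7e-5p was thus lower than miR-99b-5p and miR-125a-5p in both libraries. Of these, only the hairpin of miR-125a was located beside Mirlet7e here, and the place of the miR-99b hairpin was not checked. The other pairs were less steady. miR-99a-5p lay at 806 and 777 CPM, below let-7c-5p, with log2 ratios between the libraries of -0.05 for miR-99a-5p and -0.38 for let-7c-5p. miR-100-5p lay at 1524 and 1351 CPM and miR-125b-5p at 1933 and 1582 CPM, both below let-7a-5p. Their log2 ratios were -0.17 and -0.29, against -0.48 for let-7a-5p. The guides let-7a-5p, let-7c-5p and miR-125b-5p each come from more than 1 hairpin, so these comparisons are not ratios within a cluster. miR-125b-1-3p and miR-125b-2-3p had 158 and 170 reads in replicate 1 and 250 and 270 in replicate 2, more than any 3p arm of let-7 other than let-7d-3p.

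**Figure D5:**
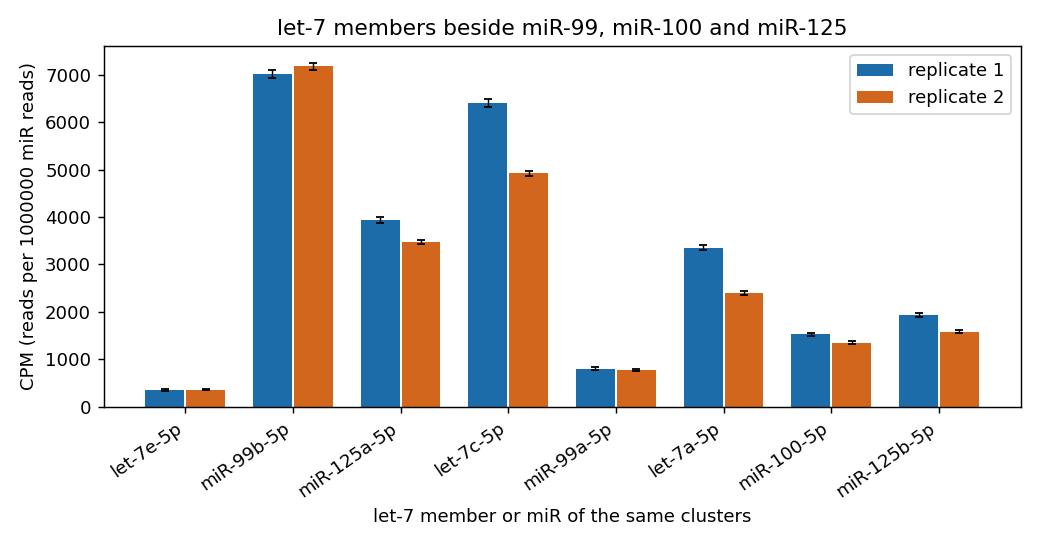
CPM of let-7e-5p, let-7c-5p and let-7a-5p beside the guides of miR-99, miR-100 and miR-125, with 1 bar for each library and Wilson 95% intervals. let-7e-5p (347 and 359 CPM) is the lowest bar, while let-7c-5p and let-7a-5p stand above miR-99a-5p, miR-100-5p and miR-125b-5p.

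The loops between the arms of the 11 let-7 hairpins were searched for GGAG, the letters that the zinc knuckles of LIN28 are known to bind, on the strand of the hairpin only. GGAG was found in the loops of 9 of them. Over the 644 hairpins searched, in which both arms were located, it was found in 8.23%, and in 11.9% of the 42 loops of other miRs within the same range of lengths (23 to 34 bases). The loops of let-7g and let-7e are shown as examples with GGAG in capitals, followed by those without it.
Mirlet7g: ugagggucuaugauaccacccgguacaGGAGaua
Mirlet7e: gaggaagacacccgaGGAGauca
Mirlet7b: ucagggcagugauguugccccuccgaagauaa
Mirlet7c-2: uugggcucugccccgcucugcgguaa

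A match describes the letters only, and binding by LIN28 was not measured. Both hairpins without GGAG belong to the cluster on chromosome 15. Of their guides, let-7c-5p is also made from Mirlet7c-1, whose loop holds GGAG, and had the second highest mean CPM of the family, and let-7b-5p was lower at 1115 and 823 CPM.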

How the data were processed

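RNA of sperm was isolated with Tri Reagent. The labels name the Illumina TruSeq RNA Sample Preparation v2 Kit, and the methods a TruSeq kit for small RNA sequencing. Per the methods, the authors trimmed low-quality ends, removed adapters and reads under 15 bases with cutadapt (1.8.1 in the submitters' processing notes), and mapped with bowtie 1.1.2, first without mismatches to miR and piRNA sequences. The notes also name HTSeq. Which step gave the counts is not given in the sources used here. Later mapping steps, the last of them to the mouse genome, allowed 1 mismatch. Reads with errors or added bases are lost where no mismatch is allowed. Where 1 is allowed, such reads may be kept, and may be placed with a member that differs at a single base. The authors deposited whole-number read counts for each mature miR and library, not normalized and not pooled. The 5 summary entries were left out of the totals. Reads assigned to no miR made up 38.1% and 26.3% of the reads listed in replicates 1 and 2.

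CPM was computed with the miR reads as denominator (4049599 and 5648067), and 3 reads were taken as the floor. Values are mean ± SD over 2 libraries. Ratios used CPM + 1. edgeR 4.0.16 (TMM) and DESeq2 1.42.0 (size factors, R 4.3.3) gave other scalings, and no differential test was run. Computations used Python 3.11.15, numpy 2.4.6, pandas 2.3.3, scipy 1.17.1 and matplotlib 3.10.9. Only the fold rule and the Wilson interval of the family share were tried on simulated counts. There the fold rule was recentred on entries left unchanged, which was not done for the data. Sequences were matched by miR name. All 20 entries of the family had one. The loop of miR-98 is not reported here. The members, lists and alternatives were chosen with earlier results of these data known. Named were all entries of the family, miRs of its seed, its cluster partners, and the 3 nearest entries to let-7f-5p and to miR-98-5p. Members of the marker lists are given by list, and those named from the lists were chosen after their values were seen.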

Additional observations from a re-analysis of the deposited data

How the results depend on the processing

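The mean share of the family was 2.26% of the miR reads. It was 1.52% of all reads listed, and 10.8% of the miR reads other than miR-10a-5p and miR-10b-5p, both of which change only the denominator. It was 1.98% without replicate 1 and 2.55% without replicate 2, and it moved by less than the SD with the other scalings, with 5p arms only and with every miR of the let-7 seed. These last settings could hardly move it, so no stability is read from them. The scalings shift the 2 libraries in opposite directions and few family reads lie on 3p arms. The miRs of the seed outside the family had no read. The log2 ratio of the family total, -0.37, was -0.018 with TMM, -0.026 with DESeq2 size factors, -0.12 against all reads listed and -0.20 without miR-10a-5p and miR-10b-5p in the denominator. Detection of 17 family entries, where 20.0% of all 1886 entries passed, became 11 with at least 10 reads in each library, where 12.9% of all passed. It became 10 with at least 100 reads, where 6.52% of all passed, and 10 with at least 10 CPM, where 8.06% of all passed. The family entries lost were 3p arms. Either library alone had reads for 18 entries. The count of family entries over 2-fold apart, 1, was 2 of 15 with TMM and with DESeq2 size factors, against 18.9% and 19.2% of all 323 entries. It was 3 of 15 with a pseudocount of 0.1 CPM, against 30.7% of all, and 0 of 10 with at least 100 reads together, against 19.4% of all that passed. The 3p share, 0.361%, was 0.334% without the joined entry, between 0.357% and 0.366% with either library alone, and 0.0764% without let-7d, an alternative chosen after seeing the data. CPM of all 9 guides moved by less than the SD with TMM and DESeq2, which shift the 2 libraries in opposite directions, so no stability is read from this. Against all reads listed, the CPM of all 9 moved by more. With 2 libraries, either one alone lies within 1 SD of the mean by construction. No paired analysis was possible because there is only 1 group.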

Other observations

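Near relatives of the family outside its names had few reads. let-7j, whose bases 2 to 8 differ from the let-7 seed at the last base, had 7 reads in replicate 1 and 12 in replicate 2, or 1.73 and 2.12 CPM. miR-202-3p, known from the testis and ovary, has the same bases 2 to 8 as let-7j and had 0 and 2 reads. let-7k and miR-1961 carry the let-7 seed itself, and neither had a read in either library, which allows up to 0.741 and 0.531 CPM for a count of 3 reads. The reads of the let-7 seed were therefore all on the 9 guides named for the family, among the entries with a sequence in the reference table.
let-7j: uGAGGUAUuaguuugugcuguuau
miR-202-3p: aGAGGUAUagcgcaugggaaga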
